A study of Mus musculus with 3 samples.

Results

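The genes described here are 8 genes by which haematopoietic stem cells are recognised or on which they depend: Procr, Mecom, Angpt1, Nkx2-3, Kit, Slamf1, Hlf and Abcg2. All probe sets that the platform annotation pairs with 1 of these symbols alone were taken, which gave 17 probe sets of 8 genes, out of 34945 probe sets with a single symbol and 18193 genes in all. They were read on 3 Affymetrix GeneChip arrays of mouse bone marrow cells sorted as Sca-1-positive and lineage marker-negative, a fraction that holds stem cells together with their early progeny. The mice were 10 weeks old and of strain C57BL/6J. The first array held cells of wild type mice. The second held cells of Line 6 and the third cells of Line 3, both labelled with the genotype Tg(Ly6a-KDM1A*v2, in which the gene symbol of LSD1, a histone demethylase, is joined to that of Sca-1. The sources used here do not state which regulatory element drives the transgene, how many mice a sample pooled, or whether they were male or female. With a single array for each genotype, differences have no replicate error and carry the chance deviation of single arrays.

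A few stem cells in the marrow renew themselves and give rise to all blood lineages. They are separated from the far more numerous progenitors by surface proteins and by a small set of transcription factors that are switched off as cells commit to a lineage. Surface receptors such as KIT and the protein C receptor read signals of the marrow niche, while factors such as EVI1, encoded by Mecom, and HLF hold the stem cell programme. In bulk RNA such as this, fewer cells of a type and less RNA per cell cannot be told apart.

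Values are the authors' intensities on a linear scale. The median intensity of an array was 96.2 in wild type against 116 in Line 6 and 99.0 in Line 3, and a probe set below it is called dim here. Each array held 45037 probe sets, and no detection calls were used here, so a dim reading could not be told from background. Differences are log2(intensity + 16) of one array minus another, which understates the differences of dim genes, and a difference of 1 or more, meaning 2-fold, is called past the limit. The brightest probe set of a gene, by its mean over the arrays, stands for the gene. The brighter Kdm1a probe set (1426762_s_at) differed from wild type by 0.29 (Line 6) and 0.50 (Line 3). The other (1426761_at) differed by -0.01 and 0.69. A response of either to RNA made from the transgene was not tested, so these values cannot check the genotype labels. Ly6a is not reported here. The lineage marker gene Itgam read 2653 in wild type against 1088 in Line 6 and 713 in Line 3. Whether this RNA came from mature cells in the sorted fraction was not tested.

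In both lines, 3 of the 8 genes read at least 2-fold above wild type: Procr, Mecom and Angpt1. Hlf was past the limit in Line 3 and Kit lay 1.48-fold and 1.52-fold above wild type. Abcg2 and the brightest Nkx2-3 probe set, itself dim in both lines, were close to wild type, and Slamf1 was dim on all 3 arrays. No gene of the 8 was 2-fold lower in either line. In Line 6 the count was 3 of 8 higher and 0 lower, where 3.73% of all genes were higher and 3.21% lower. In Line 3 it was 4 of 8 higher and 0 lower, where 3.8% were higher and 4.82% lower. These counts share the wild type array and are not independent. In both lines together 1.5% of all genes were higher and 1.89% lower. The median difference of the 8 genes was 0.71 in Line 6 and 1.02 in Line 3, against 0.04 over all genes in each line.

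**Figure D1:**
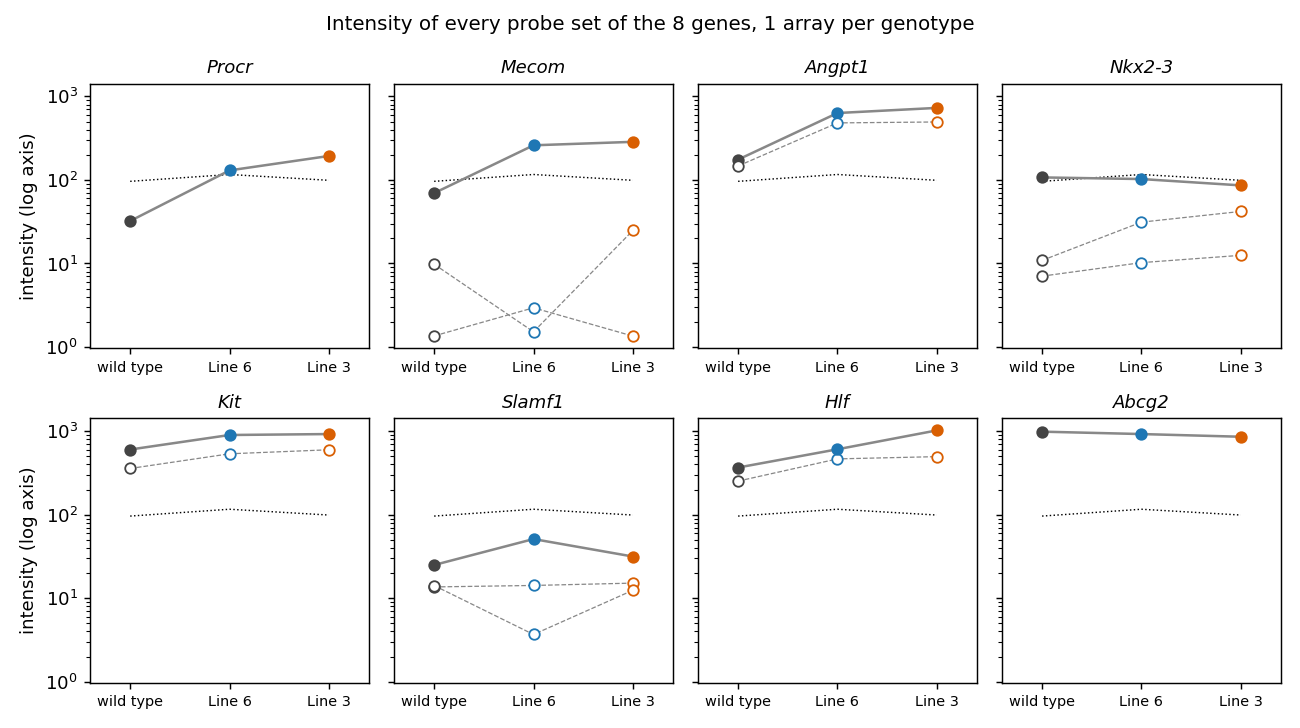
Intensity (log axis) of all 17 probe sets on the wild type, Line 6 and Line 3 arrays, 1 panel per gene. Filled points joined by a solid line are the brightest probe set of the gene, open points joined by dashes are the others, and the dotted line is the median of each array. Procr and the brightest of the 3 Mecom probe sets lie below the dotted line in wild type and above it in both lines, the other Mecom probe sets lie below it throughout, and Slamf1 lies below it on all 3 arrays.

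Among the surface receptors, Procr encodes the endothelial protein C receptor, one of the most selective surface markers of stem cells. Its single probe set (1420664_s_at) read 32.3 in wild type against 130 in Line 6 and 194 in Line 3. The wild type reading was dim and both transgenic readings were above the medians of their arrays. The differences were 1.60 in Line 6 and 2.12 in Line 3. The Line 3 difference ranked 13 from the top among 18193 genes, and the Line 6 difference ranked 116. As the suffix _s_at marks a probe set that can match more than 1 transcript, and as Procr has no other probe set, this reading has no second measurement on the array.

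Kit encodes the receptor of stem cell factor, carried by stem cells, most early progenitors and mast cells. Its brighter probe set (1452514_a_at) read 603 in wild type against 899 in Line 6 and 923 in Line 3. The other (1415900_a_at) read 357, 536 and 598. Both probe sets were higher in both lines and neither reached 2-fold, with differences of 0.57 and 0.60 on the brighter and 0.56 and 0.72 on the other.

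Slamf1 encodes CD150, which on cells lacking CD48 marks long-term stem cells. Its brightest probe set (1425569_a_at) read 25.0 in wild type against 51.1 in Line 6 and 31.6 in Line 3, and the other probe sets, 1425570_at and 1425571_at, lay between 3.68 and 15.2 on all arrays. Every reading of Slamf1 was dim. The brightest probe set lay 0.71 above wild type in Line 6 and 0.21 above it in Line 3, and one of the others (1425571_at) differed by -0.62 and -0.09, so the probe sets did not share a direction. Cd48, which is high in progenitors, read 2830 in wild type against 3467 in Line 6 and 3767 in Line 3, with differences of 0.29 and 0.41.

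Among the transcription factor genes, Mecom encodes EVI1, a zinc finger factor that stem cells need for long-term self-renewal. Its brightest probe set (1438325_at) read 69.6 in wild type against 260 in Line 6 and 286 in Line 3. It was dim in wild type and above the array median in both lines, with differences of 1.69 and 1.82. The remaining Mecom probe sets, 1422295_at and 1423011_at, ranged from 1.35 to 24.8 and stayed dim on every array. The first of them differed by -0.56 in Line 6 and 0.66 in Line 3, so the Mecom result rests on 1 of 3 probe sets. The sources used here do not state which Mecom transcripts each probe set matches.

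Hlf encodes a PAR bZIP factor whose expression falls as stem cells become committed progenitors. Its brighter probe set (1434736_at) read 367 in wild type against 607 in Line 6 and 1021 in Line 3. The other (1434735_at) read 252, 466 and 495. On both probe sets wild type was lowest and Line 3 highest. The probe sets differed on the limit: the brighter gave 0.70 in Line 6 and 1.44 in Line 3, and the other gave 0.84 and 0.93, inside 2-fold in both lines.

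Nkx2-3 encodes a homeobox factor known from the vessels of spleen and gut and also expressed in stem cells. Its brightest probe set (1452528_a_at) read 107 in wild type against 102 in Line 6 and 86.1 in Line 3, with differences of -0.06 and -0.27. The probe set 1425827_at read 10.9, 31.2 and 42.0, differences of 0.81 and 1.11, and 1427741_x_at read 7.05, 10.2 and 12.5. The brightest probe set was highest in wild type, where it lay just above the array median, and dim in both lines. The others were lowest in wild type and dim on every array. The gene has no single direction on these arrays.

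Angpt1, the only secreted ligand of the 8, encodes angiopoietin 1, which activates the receptor TIE2 and is made in marrow by stem and progenitor cells, megakaryocytes and stroma. Its brighter probe set (1421441_at) read 175 in wild type against 632 in Line 6 and 729 in Line 3. The other (1439066_at) read 147, 482 and 494. Both probe sets were above the array median on all 3 arrays and past 2-fold in both lines, with differences of 1.76 and 1.96 on the brighter and 1.61 and 1.65 on the other. Angpt1 was the gene of the 8 with more than 1 probe set past the limit in both lines.

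Abcg2 encodes an efflux transporter that expels dyes and drugs and so defines the side population of stem cells, and it is also expressed in erythroid precursors. Its single probe set (1422906_at) read 986 in wild type against 923 in Line 6 and 857 in Line 3. Wild type was highest, but the differences were -0.09 and -0.20, far inside the limit.

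The promoters of the genes past the limit are shown because their readings lay on the same side of wild type. RefSeq (build GRCm38.p6) gave 11 promoters for 7 of the 8 genes, Angpt1 being the one without an entry. Each sequence holds the 250 bases before an annotated start, 5′ to 3′ on the gene's own strand. The Procr sequence lies at chr2:155750967-155751216 on the plus strand. Mecom has an upstream start (chr3:30509760-30510009, minus strand) and a downstream one (chr3:30013205-30013454, minus strand). The Hlf sequence lies at chr11:90390918-90391167 on the minus strand. Capitals mark matches, on either strand, to letters searched for: AGATAA for GATA factors, CAGCTG for E-box factors, TGTGGT for RUNX, TGACAG for MEIS, CGGAAG for ETS factors and AAATCAC for GFI1, which recruits LSD1. These runs do not contain one another.
Procr: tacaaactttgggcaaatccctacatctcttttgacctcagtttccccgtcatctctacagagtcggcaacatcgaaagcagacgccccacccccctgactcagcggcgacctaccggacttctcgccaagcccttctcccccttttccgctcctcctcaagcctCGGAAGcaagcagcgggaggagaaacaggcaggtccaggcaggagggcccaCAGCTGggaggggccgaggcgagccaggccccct
Mecom upstream: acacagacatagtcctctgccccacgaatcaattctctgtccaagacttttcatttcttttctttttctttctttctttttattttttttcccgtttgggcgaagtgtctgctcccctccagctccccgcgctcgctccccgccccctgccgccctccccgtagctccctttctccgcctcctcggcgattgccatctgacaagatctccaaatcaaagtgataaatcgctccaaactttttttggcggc
Mecom downstream: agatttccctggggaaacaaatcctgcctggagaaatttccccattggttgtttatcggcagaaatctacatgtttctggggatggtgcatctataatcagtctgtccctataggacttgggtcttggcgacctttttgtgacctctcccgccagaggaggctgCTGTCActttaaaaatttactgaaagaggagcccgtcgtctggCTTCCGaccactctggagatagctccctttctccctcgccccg
Hlf: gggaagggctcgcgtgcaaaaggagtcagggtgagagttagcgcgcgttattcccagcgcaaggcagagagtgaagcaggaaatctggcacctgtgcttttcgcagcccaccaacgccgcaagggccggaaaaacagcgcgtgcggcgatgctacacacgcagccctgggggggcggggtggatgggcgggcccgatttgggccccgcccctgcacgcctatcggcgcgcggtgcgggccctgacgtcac

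The Procr sequence held the ETS letters beginning 85 bases and the E-box letters beginning 34 bases before the start. The downstream Mecom sequence held the MEIS letters beginning 86 bases and the ETS letters beginning 43 bases before the start, on the opposite strand in each case. The upstream Mecom and the Hlf sequence held none of the letters. Over the 11 promoters, ETS letters were in 2 (13.6% of all 32851 promoters), E-box letters in 2 (13.0%), RUNX letters in 1 (14.1%), MEIS letters in 1 (15.9%), GFI1 letters in 1, that of Slamf1 (2.75%), and GATA letters in 0 (9.99%). A match is a description of the letters and says nothing of binding in these cells.

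**Figure D2:**
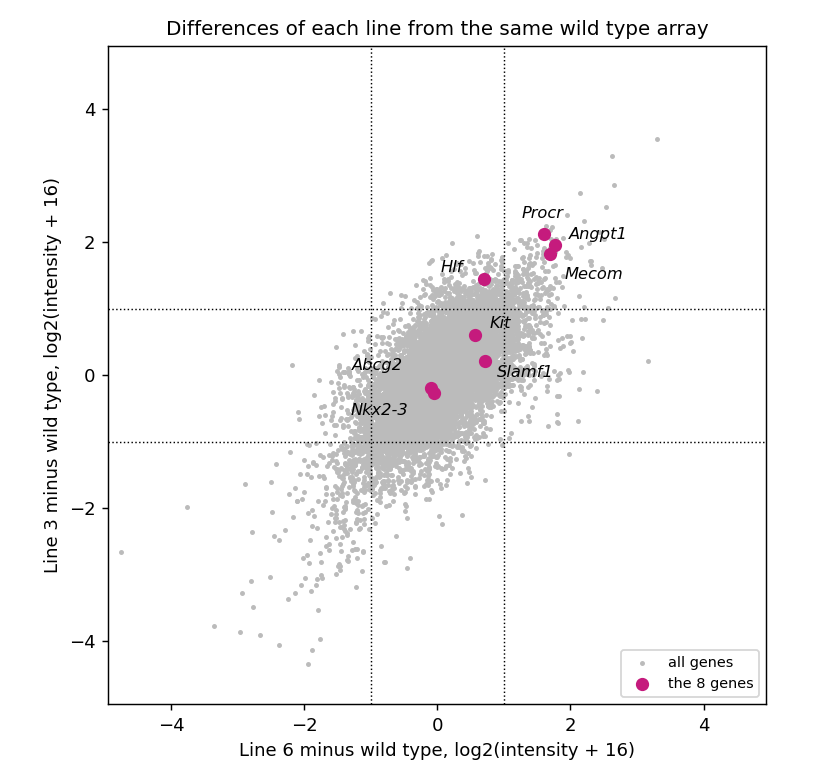
Difference from wild type in Line 6 (horizontal) and Line 3 (vertical), on the log2(intensity + 16) scale, for 18193 genes (grey) and the 8 stem cell genes (magenta); dotted lines mark 2-fold. Procr, Mecom and Angpt1 lie past both upper limits, Hlf past that of Line 3, and the other 4 inside both. The axes share the wild type array and its chance deviation.

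The lines were then set against each other, a comparison that uses no wild type value. None of the 8 genes differed by 2-fold between Line 3 and Line 6, where 1.52% of all genes were higher in Line 3 and 3.06% lower. The median difference of the 8 genes, Line 3 minus Line 6, was 0.08, against 0.01 over all genes. Hlf had the highest value, 0.74 on the brighter probe set and 0.09 on the other. Procr was 0.52 higher in Line 3, and Mecom (0.13), Angpt1 (0.20) and Kit (0.04) were nearly level. Slamf1 was the lowest, with -0.50 on a dim probe set. Over all genes the SD of Line 3 minus Line 6 was 0.46, which holds noise and line differences alike. Of the 17 probe sets, 1 was past the limit between the lines, the dim Mecom probe set 1422295_at, which read 1.52 in Line 6 and 24.8 in Line 3 and differed by 1.22. Over all probe sets with a single symbol, 1.36% passed on the higher side in this comparison and 2.96% on the lower.

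Counted over probe sets in place of genes, 4 of the 17 were past 2-fold higher in Line 6 and 6 in Line 3, and none was 2-fold lower. Among all probe sets with a single symbol, 3.89% passed on the higher side in Line 6 and 2.79% on the lower. In Line 3 these shares were 3.54% and 4.4%. The probe sets past the limit in both lines were 4, those of Procr and Angpt1 and the brightest of Mecom, where the shares of all probe sets were 1.44% higher and 1.57% lower. At least 1 array read above its median in 10 of the 17. A filter of that kind would have dropped Slamf1 and kept Procr and Mecom through the transgenic arrays alone, so the counts above were made with all 8 genes and no filter.

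When the lines were treated as 2 samples of 1 transgenic group in limma, 0 of the 8 genes, and 0 of 18193 genes, had a Benjamini-Hochberg adjusted p under 0.05. The pooled differences were 1.86 ± 0.32 (SE) for Procr, 1.75 ± 0.23 for Mecom and 1.86 ± 0.24 for Angpt1. That fit had 1 wild type array, whose own spread it could not measure.

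**Figure D3:**
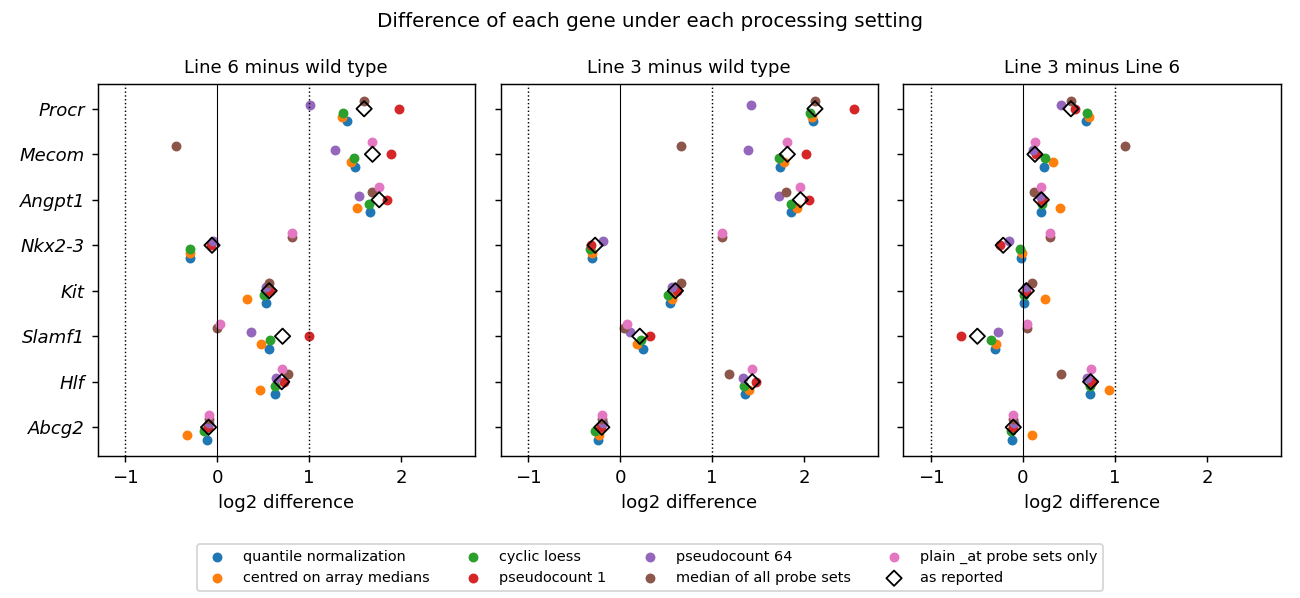
Log2 difference of each of the 8 genes in the 3 comparisons, as reported (open diamonds) and under other scalings, pseudocounts and choices of probe set (coloured points); dotted lines mark 2-fold. Against wild type, Angpt1 and Procr in both lines and Hlf in Line 3 stay past the limit at every point drawn, while with the median of all probe sets Mecom lies at -0.45 in Line 6 and 0.66 in Line 3, and Nkx2-3 at 1.11 in Line 3.

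Other genes of the stem cell programme were higher in part. Of 56 further stem cell genes, 54 had a probe set with a single symbol. Of these 54, 7 were past 2-fold higher in both lines and 1 was lower, where 1.5% of all genes were higher and 1.89% lower. Their median differences were 0.27 in Line 6 and 0.49 in Line 3. The split between higher and lower depended on the scaling: 4 higher and 1 lower after quantile normalization, 3 and 2 after cyclic loess, and 1 and 2 after centring each array on its median. Over all genes, the share of higher calls among those past the limit in both lines was 44.2% with the values as deposited. It was 34.6% with quantile normalization, 32.3% with cyclic loess and 23.3% with centring.

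Of 23 other transcription factor genes of stem cells, 4 were higher in both lines and none was lower. Hoxa9, a homeobox gene of self-renewing progenitors, read 356 in wild type against 963 in Line 6 and 1176 in Line 3. Prdm16, a relative of Mecom that stem cells also need, read 136, 337 and 345, differences of 1.22 and 1.25. Mycn (1.12 and 1.43) and Meis1, a cofactor of HOXA9 (1.03 and 1.11), were the others. After centring, Hoxa9 was the 1 of these 4 still past the limit in both lines. Median differences of the list were 0.14 in Line 6 and 0.44 in Line 3.

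Of 16 other surface genes, 2 were higher in both lines and 1 was lower. Esam, an adhesion molecule of stem cells and endothelium, read 29.7 in wild type against 89.6 in Line 6 and 104 in Line 3. Robo4, a guidance receptor of the same cells, read 37.5, 95.9 and 104. Both genes were dim in wild type and in Line 6. Robo4 was not past the limit in both lines after quantile normalization, centring or cyclic loess, nor was Esam after the latter 2. Cd9, a tetraspanin of stem cells, megakaryocytes and other cells, went the other way, at 2068, 1022 and 738. It was not past the limit in both lines after quantile normalization. Il1rap differed by -1.20 in Line 6 and -0.99 in Line 3, just inside the limit in the latter. After quantile normalization, centring or cyclic loess it was past the limit on the lower side in both lines. Among 15 genes enriched in dormant or long-term stem cells, Trpc6, a cation channel gene, was past the limit in both lines (1.07 and 1.04), though under none of the 3 other scalings, and was dim on all arrays, and the list's medians were 0.60 and 0.50.

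**Figure D4:**
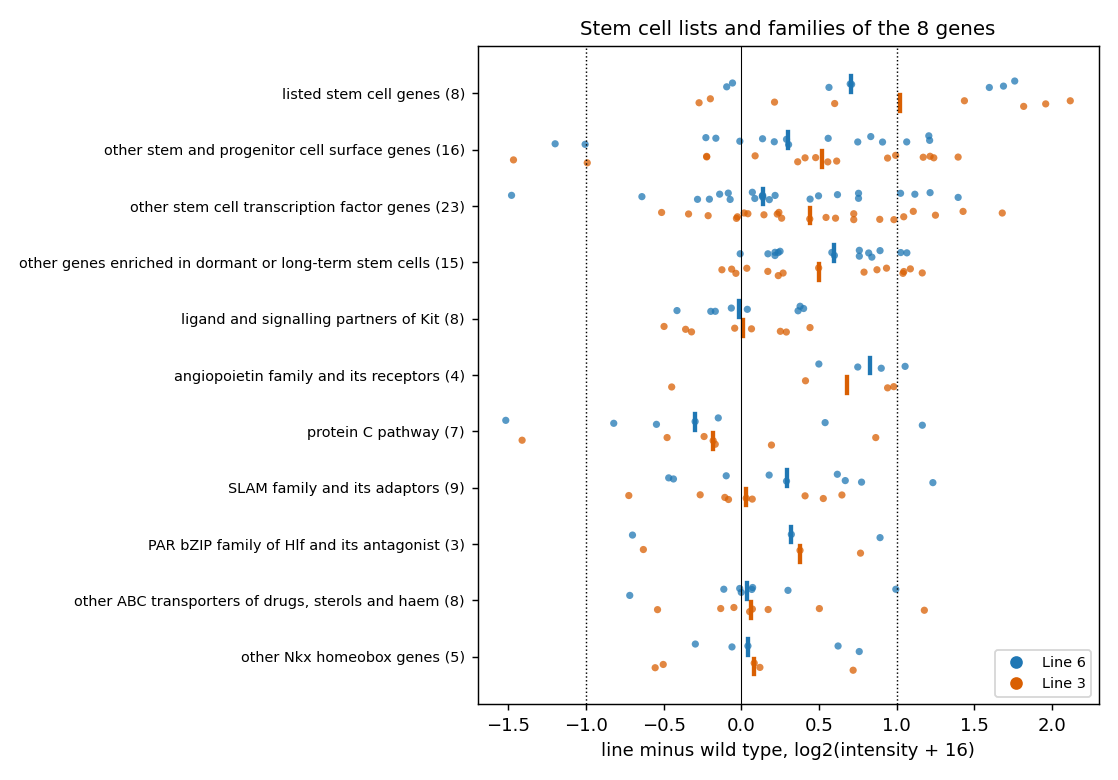
Difference from wild type, log2(intensity + 16), of every gene (points) in the stem cell lists and in the families of the 8 genes, in Line 6 (blue) and Line 3 (orange), with the median of each list as a bar and its number of genes in brackets. The bars of the 8 genes lie at 0.71 and 1.02, to the right of those of the 3 other stem cell lists; dotted lines mark 2-fold.

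The partners of the 8 genes stayed mostly inside the limit. Of 44 measured genes that act with them or belong to their families, 0 were 2-fold higher in both lines and 1 was lower, against 1.5% and 1.89% of all genes, and the medians were 0.07 and 0.06. The lower one, F3, encodes tissue factor, which starts coagulation. It read 59.2 in wild type against 10.3 in Line 6 and 12.3 in Line 3 and so was dim on all arrays.

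For Procr, 7 genes of the protein C pathway were measured. The thrombin receptor gene F2r was higher by 1.17 in Line 6 and 0.87 in Line 3, past the limit in the former. For Angpt1, the 4 measured genes of its family and receptors had medians of 0.83 and 0.68 with 0 past the limit in both lines. The receptor gene Tie1, a partner of TIE2, was the furthest from wild type of these over both lines, at 85.5 in wild type against 174 in Line 6 and 185 in Line 3, and Tek, which encodes TIE2 itself, read 33.5, 67.3 and 79.2, dim on all arrays.

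For Kit, the 8 measured partners had medians of -0.01 and 0.01. Its ligand gene Kitl, mainly a product of stroma and endothelium, gave the largest mean difference at 0.38 and 0.44 on a dim probe set. When only probe sets with the plain suffix _at were used, another Kitl probe set was past the limit on the higher side in both lines. Of 9 SLAM family and adaptor genes, 0 were past the limit in both lines. Slamf6 read 108 in wild type against 275 in Line 6 and 114 in Line 3, past the limit in Line 6 (1.23) and in Line 3 minus Line 6 (-1.16). For Hlf, its relatives Tef (0.89 and 0.77) and Dbp (0.32 and 0.38) were higher, and Nfil3, a repressor of the same sites, was lower (-0.70 and -0.63), each inside 2-fold. Among 8 other transporters near Abcg2 in function, Abca1, a sterol exporter gene, lay just inside the limit in Line 6 and 1.18 above wild type in Line 3. All 5 other Nkx genes stayed inside 2-fold, with Nkx2-6 the furthest (0.62 and 0.72).

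Several of the 8 genes are also active outside stem cells, and markers of other cell types differed on the same arrays. The summed intensity of 13 neutrophil markers was 166537 in wild type against 123527 in Line 6 and 104152 in Line 3. On the lower side 5 of the 13 were past the limit in both lines, with 0 on the higher side. Over all genes, 1.89% were lower and 1.5% higher. The 5 were headed by Itgb2l (-1.92 and -2.82), Mmp8 (-1.28 and -2.63), Mmp9 (-1.21 and -2.61) and Cxcr2 (-1.36 and -2.40). The medians of the 13 were -0.81 and -1.12. Not all markers were lower: Mpo (0.02 and 0.10) and Elane (-0.05 and 0.19) were near wild type. S100a9 (-0.04 and -0.25) and S100a8 (-0.18 and -0.45) were lower by little. The wild type reading of S100a8, 25535, was the highest on its array, and S100a9 read 23431 there. Whether readings so near the top of the scale understate differences was not tested. In total 13 of 13 read above the array median on every array. The part of the neutrophil marker differences in the higher readings of the stem cell genes was not tested.

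Endothelial cells express Procr, Tek and Esam. The sum of 14 endothelial markers was 1807 in wild type against 3054 in Line 6 and 3110 in Line 3, and the medians were 0.41 and 0.47. Within that sum, Pecam1 alone read 693, 1118 and 1488. Past the limit in both lines were 3: Emcn (1.37 and 1.67), Stab2 (1.61 and 1.23) and Plvap (1.12 and 1.10). Over all genes, 1.5% were higher in both lines and 1.89% lower. Plvap was dim on all arrays, Emcn in wild type and Line 6, and Stab2 in wild type. Cdh5 (-0.01 and -0.53), Flt1 (-0.64 and -0.93) and Sox17 (-0.16 and -0.44) lay below wild type in both lines. Of these, Sox17 was dim on all arrays, Flt1 in both lines and Cdh5 in Line 3. Of the 14, 4 read above the array median in wild type and 5 in each line. For stroma, a source of Angpt1, 11 markers summed to 1076, 1748 and 1703, with medians of 0.44 and 0.39 and 1 past the limit in both lines, Pdgfrb (1.16 and 1.23). Of the 11, 4 read above the array median in wild type and in Line 3, and 5 did so in Line 6. Their part in the Procr and Angpt1 readings was not tested.

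Mast cells and basophils, of which mast cells express Kit, had 8 measured markers with summed intensities of 13040 in wild type against 12121 in Line 6 and 22389 in Line 3. Of these, 0 were past the limit in both lines, 1 was in Line 6 and 5 were in Line 3, while Kit differed by 0.04 between the lines. Over all genes, 3.73% were higher in Line 6 and 3.8% in Line 3. Cma1, a mast cell protease gene, had the largest mean difference of that list (1.70 and 0.44) and was dim on all arrays. The 5 past the limit in Line 3, all higher, were Cpa3, Ms4a2, Fcer1a, Mcpt8 and Gzmb. Mcpt8 read 2778 in wild type against 3529 in Line 6 and 6939 in Line 3. Ms4a2 read 1351, 1752 and 3857, Cpa3 1281, 1480 and 3579, and Fcer1a 1281, 1373 and 3396. Hdc was lower in both lines (-0.75 and -0.51), and Tpsb2, dim on all arrays, differed by 0.68 and -0.87. Megakaryocyte markers, 8 in number, summed to 5400, 5649 and 4902 with 0 past the limit in both lines, the largest mean difference being that of Pf4 (1.20 and 0.55). Erythroid markers, 7 in number and relevant to Abcg2, summed to 15112, 16353 and 15771, again with 0 past the limit in both, and Alas2, the haem synthesis gene, differed by -0.34 and -1.57.

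The 8 measured B cell markers summed to 3498 in wild type against 10432 in Line 6 and 3958 in Line 3, with 6 higher than the limit in Line 6 and 1 in Line 3, and Blnk past it in both (1.76 and 1.03). Their medians were 1.60 and -0.20. Of all genes, 3.73% were higher in Line 6 and 3.8% in Line 3. Of 11 macrophage markers, which summed to 15293, 18437 and 21666 and had medians of 0.80 and 1.08, 5 were higher in both lines and 1 was lower, with Cd5l (3.30 and 3.55), Mrc1 (1.94 and 2.41) and C1qc (1.72 and 2.22) on the higher side and Cd14 (-2.50 and -1.61) on the lower. Of 6 measured lineage surface markers, Itgam was lower in both lines (-1.27 and -1.87) and none was higher. In both lines together, 1.5% of all genes were higher and 1.89% lower. The part of each list in the readings of the 8 genes was not tested.

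**Figure D5:**
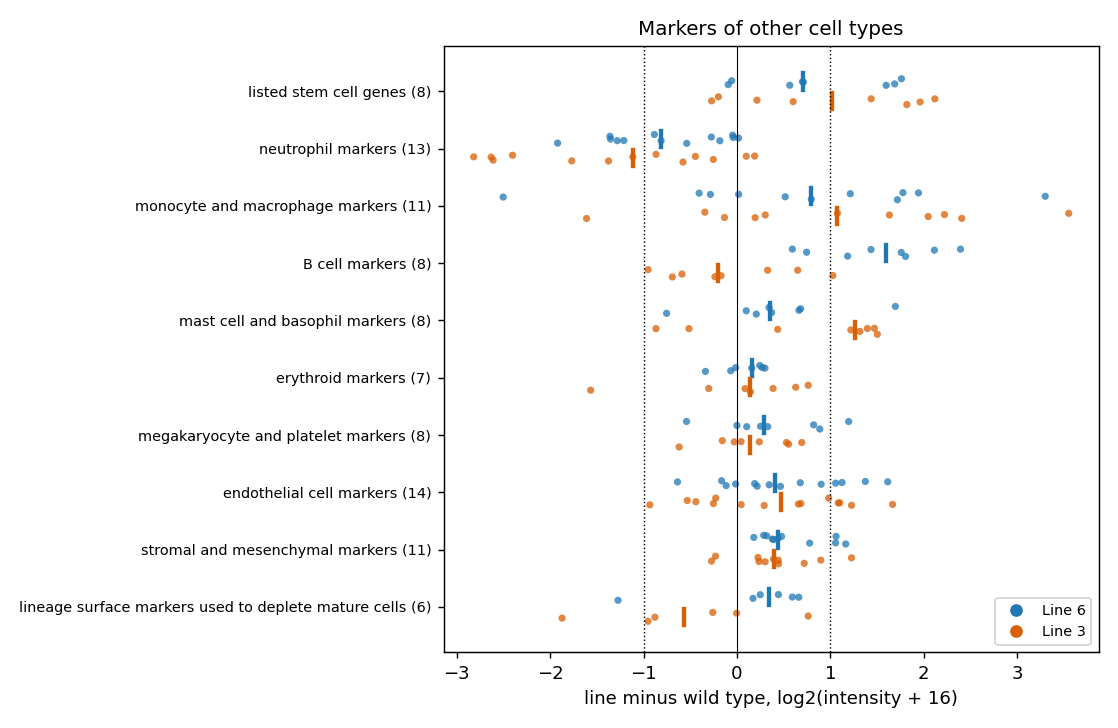
Difference from wild type, log2(intensity + 16), of every marker gene (points) of other cell types beside the 8 stem cell genes, in Line 6 (blue) and Line 3 (orange), with list medians as bars and dotted lines at 2-fold. Neutrophil medians lie at -0.81 and -1.12, on the other side of 0 from the stem cell genes, while macrophage medians lie at 0.80 and 1.08, above the 0.71 and 1.02 of the 8 genes, and mast cell and B cell markers part between the lines.

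The genes nearest in pattern to the median of the 8 (0.71 in Line 6 and 1.02 in Line 3), out of 10378 named genes above the array median on at least 1 array, were Gimap6, Tmem191c, Gtf2h4, Gdpd1 and Hsph1. Likeness was the distance between pairs of differences, which was 0.03 for Gimap6 and 0.05 for Hsph1 over 3 arrays. Gimap6 read 1021 in wild type against 1702 in Line 6 and 2117 in Line 3.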

How the data were processed

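RNA of 3 samples, 1 per genotype, was amplified with the Ovation Pico WTA System and hybridised with biotin label, per the labels' protocols. The deposited values are intensities on a linear scale, already scaled by the authors, since the arrays had the same trimmed mean of 497 (2% off each end). The summary method is not stated in the sources used here. Probe sets were named through the platform annotation, with symbols updated through RefSeq (GRCm38.p6). A gene was represented by its brightest probe set. No filter on low values was used for the counts as reported, because a filter keeps dim genes where a line is high. The search for the nearest genes in pattern did use one, at or above the array median on at least 1 array. The number of arrays limits the precision. The genes, lists and rules were chosen with earlier results of these data known. Named were the 8 genes, Kdm1a and up to 4 genes per list past 2-fold in both lines. Where a list had none, the gene with the largest mean absolute difference was named. The nearest 5 in pattern were named too. Some others are named outside this rule, chosen after their values were seen. They are Cd48, Il1rap, F2r, Tek, Dbp, Nfil3, Pecam1, Cdh5, Flt1, Sox17, Mpo, Elane, S100a8, S100a9, Cpa3, Ms4a2, Fcer1a, Mcpt8, Gzmb, Hdc and Tpsb2. The counting of calls was tested on simulated data, with differences well past the limit and scored in brighter genes alone. That test does not cover calls near 2-fold or on dim genes. Alternatives were other scalings, pseudocounts, probe set rules, filters and limits, and a limma fit. Software was limma 3.58.1 in R 4.3.3, and pandas 2.3.3, numpy 2.4.6 and matplotlib 3.10.9 in Python 3.11.15.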

Additional observations from a re-analysis of the deposited data

How the results depend on the processing

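The counts of 3 and 4 of the 8 genes past 2-fold kept their value under quantile normalization, centring on array medians, cyclic loess and a pseudocount of 64, with the same genes. With the median of all probe sets they were 2 and 4, as Mecom left in both lines and Nkx2-3 entered in Line 3. With plain _at probe sets, which measured 6 of the 8 genes and not Procr or Kit, they were 2 and 4, again with Nkx2-3 in Line 3. With the filter at percentile 75, which left 4 of the 8 genes, they were 1 in Line 6 and 2 in Line 3. At a limit of 1.5-fold the Line 6 count was 5 and the count between the lines was 1, which was also 1 with the median of all probe sets. With that median, Mecom was -0.45 in Line 6, the 1 value past the limit that changed sign. Values inside the limit as reported changed sign there and, equally, with plain _at probe sets: Nkx2-3 was 0.81 in Line 6, 1.11 in Line 3 and 0.30 between the lines, and Slamf1 was 0.04 between the lines. Slamf1 was just past the limit in Line 6 with a pseudocount of 1. With centring, the median of all genes was -0.19 in Line 6 against 0.04 as deposited, and Abcg2 turned to 0.10 in Line 3 minus Line 6. The limma fit had 1 wild type array, so its counts are not set beside these. Other stem cell genes past the limit in both lines numbered 8 as reported, 5 after quantile normalization and after cyclic loess, 3 after centring and with the filter at percentile 75, 2 with a pseudocount of 64, 19 at 1.5-fold and 0 at 3-fold. Partner genes numbered 1 as reported, 4 with a pseudocount of 1, 2 under either other choice of probe set (the median, or plain _at suffixes), 8 at 1.5-fold, and 0 with a pseudocount of 64, either filter or 3-fold. The 2 were F3 and Abca1 with the median, and F3 and Kitl with plain _at suffixes. No paired analysis was possible because each genotype had 1 array, and for the same reason no array could be left out. Dim readings, below the array median, set the limit of what these arrays resolve for Slamf1, for Procr and Mecom in wild type and for Nkx2-3 in both lines, where all its probe sets were dim.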
